A study of Rattus norvegicus with 23 samples.

Results

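The circadian clock genes described here are 10 transcripts of the molecular oscillator and its nearest outputs, measured in kidneys of 23 male rats on Affymetrix arrays. They are Bmal1 (also named Arntl), Per1, Per2, Per3, Cry1, Cry2, Nr1d1, Nr1d2, Dbp and Nfil3, which are 10 of the 14217 genes that the array's annotation names by a single symbol. Where a gene had several probe sets, the one that read highest on average stood for it, and all 15 probe sets of the 10 genes were examined. The rats belonged to a pair of inbred Sabra lines, SBH/y, known as prone to hypertension, and SBN/y, known as resistant to it. The groups were SBH/y after removal of the right kidney (n = 6), SBH/y with 2 kidneys after a sham operation (n = 6), SBN/y after removal of the right kidney (n = 6) and SBN/y with 2 kidneys after a sham operation (n = 5). All were 4 months old, 3 months past surgery, ate chow freely and were killed by bleeding under ether, which is common to every group. The hour at which kidneys were taken is not given in the sources used here.

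The mammalian clock is a loop of transcription and repression that runs in nearly every cell, the kidney tubule included. BMAL1 pairs with CLOCK or NPAS2 and drives E-box genes, among them the Per and Cry genes, whose products return to block the pair, and Nr1d1 and Nr1d2, whose products (REV-ERB alpha and beta) repress Bmal1. Dbp is another E-box gene, and its product activates D-box genes, where the product of Nfil3 (E4BP4) represses. In rodent peripheral tissues the transcripts of this loop peak at different hours, with Bmal1 known to lie roughly opposite to Dbp, Nr1d1 and Per3. A kidney sampled once therefore gives 1 moment of that cycle for each rat.

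The promoter windows of Bmal1, Nr1d1 and Per2 are shown because they hold letters that match elements of this loop. A match of letters does not show that a site is used, and binding was not measured. Windows run from 250 bases before to 50 bases after a start assigned to the gene on GRCr8, and 9 of the 10 genes had one. Distances are counted from that start. For Bmal1, Per1, Per2, Per3 and the Nr1d1 window with the E-box, it is not the outer end that RefSeq gives the gene. That Nr1d1 window and those of Per1 and Per3 lie inside the gene. RefSeq places Nr1d1 at 84224599-84231812, and Per1 at 54299002-54313804 with its window at 54304126-54304425. Each was searched on both strands for the E-box CACGTG, the related E'-box CACGTT, the D-box as TTATGTAA or TTACGTAA, and the core of the ROR element, TAGGTCA, the site that REV-ERB proteins share with ROR activators. None of these motifs overlaps another in the windows printed, and capitals mark the match, written as it is read on the gene's own strand. The Bmal1 window, chr1:176766078-176766377 on the plus strand, held the ROR element core 16 bases before the start. Nr1d1 had 2 windows on the minus strand, chr10:84229405-84229704 with an E-box 191 bases before its start and chr10:84231763-84232062 with an E'-box on the opposite strand 174 bases before its start. The Per2 window, chr9:99496944-99497243 on the minus strand, held an E'-box 62 and a D-box 192 bases before the start.
Bmal1: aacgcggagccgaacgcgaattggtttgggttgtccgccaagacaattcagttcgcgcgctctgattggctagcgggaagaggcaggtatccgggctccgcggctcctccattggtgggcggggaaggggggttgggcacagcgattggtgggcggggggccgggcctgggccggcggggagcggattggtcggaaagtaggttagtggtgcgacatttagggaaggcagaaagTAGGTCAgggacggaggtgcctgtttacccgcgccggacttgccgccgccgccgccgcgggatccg
Nr1d1, window with the E-box: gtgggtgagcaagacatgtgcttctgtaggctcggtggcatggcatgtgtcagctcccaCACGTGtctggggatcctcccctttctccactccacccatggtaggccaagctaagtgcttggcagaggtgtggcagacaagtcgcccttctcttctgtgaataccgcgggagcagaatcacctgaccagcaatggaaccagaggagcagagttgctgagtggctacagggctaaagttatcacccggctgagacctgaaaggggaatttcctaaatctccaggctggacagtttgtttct
Nr1d1, window with the E'-box: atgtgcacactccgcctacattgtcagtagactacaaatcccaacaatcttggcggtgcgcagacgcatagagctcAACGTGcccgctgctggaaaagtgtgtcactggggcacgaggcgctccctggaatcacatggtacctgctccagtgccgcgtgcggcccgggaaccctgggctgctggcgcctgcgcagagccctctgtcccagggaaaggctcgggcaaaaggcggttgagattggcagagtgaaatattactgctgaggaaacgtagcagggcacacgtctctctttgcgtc
Per2: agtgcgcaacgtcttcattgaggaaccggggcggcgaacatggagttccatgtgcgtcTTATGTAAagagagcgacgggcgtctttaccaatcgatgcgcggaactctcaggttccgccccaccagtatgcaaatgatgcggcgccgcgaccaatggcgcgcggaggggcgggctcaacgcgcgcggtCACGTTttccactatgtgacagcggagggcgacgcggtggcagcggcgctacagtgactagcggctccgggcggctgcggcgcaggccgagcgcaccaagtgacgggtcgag
Cry2 also held an E'-box on the opposite strand, 212 bases before its start. The windows of Dbp, Nfil3, Per1, Per3 and Nr1d2 held none of these motifs, which says nothing of sites elsewhere. Of 33469 promoter windows in the genome, 6.42% held the E-box, 4.83% the E'-box, 1.01% either form of the D-box and 2.63% the ROR element core.

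Arrays had medians between 4.64 and 4.69 on the log2 scale. Kidney markers were high on every array: the proximal tubule gene Slc34a1 averaged between 12.19 and 12.30 in the 4 groups and Umod of the thick ascending limb between 12.41 and 12.51. Hepatocyte and adrenal markers were near the bottom of the scale, with Alb at no more than 4.03 and Cyp11b1 between 2.28 and 2.71 over all arrays, where Xist, a transcript of female cells, read between 2.14 and 3.13 on its 4 probe sets. The GAPDH 3' minus 5' control signal, a sign of RNA quality, was 0.53 ± 0.11 in SBH/y with 1 kidney, 0.46 ± 0.06 in SBH/y with 2, 0.45 ± 0.04 in SBN/y with 1 (SD, n = 6 each) and 0.35 ± 0.03 in SBN/y with 2 (SD, n = 5), so that it moved with the groups. Replicate 2 of SBH/y with 1 kidney and replicate 3 of SBH/y with 2 kidneys lay at the ends of the second principal component, and results that rest on them are given with and without both.

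With 2 kidneys, the clock transcripts of SBH/y and SBN/y rats stood apart in a divided pattern: Bmal1, Nfil3 and Cry1 were higher in SBH/y, and Dbp, Per3, Nr1d1, Nr1d2 and Cry2 were lower. These are 8 of the 10 genes past an adjusted p of 0.05 (limma, Benjamini-Hochberg over all probe sets), against 9.07% of the 31042 probe sets, 4.32% of them higher and 4.75% lower. The groups of all 8 did not overlap, which held for 7.57% of probe sets. The median absolute difference was 0.87 log2 over the 10 genes and 0.074 over all probe sets. In bulk kidney, fewer cells of a type and less RNA per cell cannot be told apart. The hour of collection is not known for any rat. A difference between groups in hour and one in clock gene level therefore cannot be told apart, here or in the comparisons below.

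Bmal1, the activator, read 6.08, 6.34 and 6.55 (lowest, median and highest) in SBH/y with 2 kidneys, against 5.66, 5.11, 5.30, 5.14 and 5.02 in the 5 SBN/y rats with 2 kidneys. Every SBH/y rat lay above every SBN/y rat, and replicate 1 was the highest of its SBN/y group. The difference was 1.07 ± 0.13 log2 (SE), or 2.10-fold, with an adjusted p of 1.19e-06 in limma.

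Dbp, the D-box activator, read 5.45, 5.67 and 5.87 (lowest, median and highest) in SBH/y with 2 kidneys, against 6.97, 7.54, 7.36, 7.49 and 7.80 in SBN/y with 2 kidneys. No value of one strain came within 1 log2 of the other strain's, and the SBN/y rat with the lowest Dbp was replicate 1, the one with the highest Bmal1. Dbp was 3.36-fold lower in SBH/y, a log2 difference of -1.75 ± 0.14 (adjusted p 3.34e-10 in limma). Nfil3, the repressor at the same D-box sites, ran the other way, reading 5.19, 5.46 and 5.69 in SBH/y against 4.83, 4.82, 4.73, 4.33 and 4.52 in SBN/y, a difference of 0.83 ± 0.11.

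Among the E-box repressors, Cry1 was higher in SBH/y with 2 kidneys (5.65, 6.23 and 6.45 as lowest, median and highest) than in SBN/y (5.46, 5.22, 5.56, 5.31 and 5.57), by 0.71 ± 0.15 log2 with an adjusted p of 0.00208 in limma. Its groups were separated by less than 0.1 log2, between replicate 3 of SBH/y and replicate 5 of SBN/y. Per3 was lower, reading 4.74, 5.15 and 5.45 in SBH/y against 5.71, 6.31, 6.33, 6.51 and 6.26 in SBN/y, a log2 difference of -1.11 ± 0.15. Cry2 was lower by a smaller step, with a difference of -0.41 ± 0.07 on its brighter probe set, while its other probe set gave 0.04 ± 0.09 with an adjusted p of 0.896, so that the Cry2 call rests on 1 probe set of 2. Per1 (0.20 ± 0.07, adjusted p 0.0999) and Per2 (-0.17 ± 0.13, adjusted p 0.558) did not pass the threshold in limma. The 95% intervals of these differences ran between 0.05 and 0.36 log2 for Per1 and between -0.44 and 0.10 for Per2.

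The REV-ERB genes, repressors of Bmal1, were both lower in SBH/y with 2 kidneys. Nr1d1 read 4.87, 5.34 and 5.48 (lowest, median and highest) in SBH/y, against 6.14, 6.0, 6.39, 6.68 and 6.25 in SBN/y, a difference of -1.03 ± 0.17 (2.05-fold, adjusted p 0.000124 in limma). Nr1d2 read 7.14, 7.48 and 7.85 in SBH/y, against 8.26, 8.25, 8.54, 8.34 and 8.53 in SBN/y, a difference of -0.91 ± 0.13. The other probe sets of Nr1d2 gave -0.72 ± 0.11 and -0.69 ± 0.14, both past the threshold, and followed the first with r of 0.90 and 0.66 within groups over 23 rats.

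**Figure D1:**
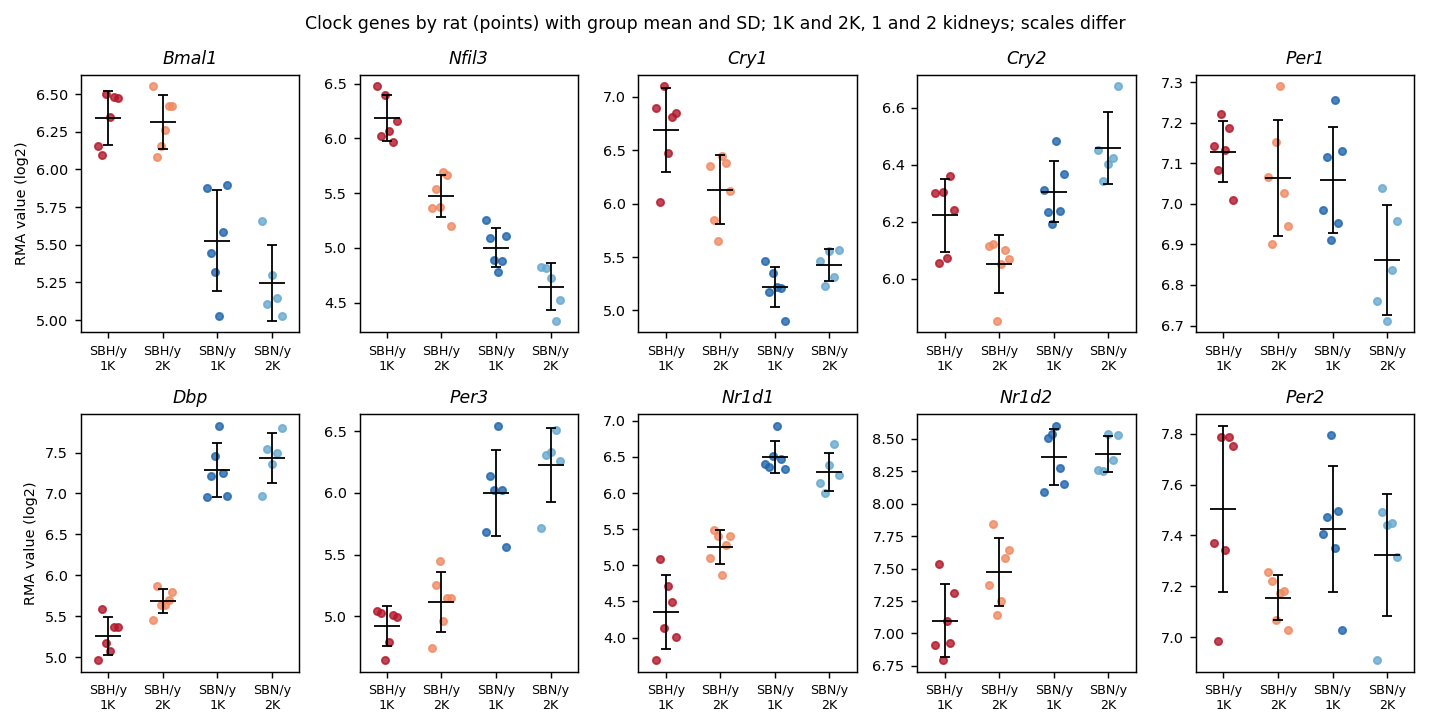
RMA values (log2) of the 10 clock genes in each rat, with 1 panel per gene and its own scale. Points are rats, horizontal marks are group means and bars are SD (n = 6, and 5 for SBN/y with 2 kidneys). Dbp, Per3, Nr1d1 and Nr1d2 sit lower and Bmal1, Nfil3 and Cry1 higher in both SBH/y groups than in both SBN/y groups, without overlap within a kidney number.

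With 1 kidney, 7 of these 8 genes differed between the strains in the same direction, and Cry2 was the exception. Bmal1, Nfil3 and Cry1 were higher in SBH/y and Dbp, Per3, Nr1d1 and Nr1d2 were lower. In this comparison 14% of all probe sets passed the threshold, 7.55% higher and 6.43% lower, and the 7 called genes were also the 7 whose groups did not overlap, against 7.62% of probe sets. The comparisons with 1 and with 2 kidneys share no rats.

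Nr1d1 showed the greatest difference of the 10 genes with 1 kidney. It read 3.69, 4.32 and 5.09 (lowest, median and highest) in SBH/y against 6.34, 6.44 and 6.94 in SBN/y, and was 4.44-fold lower (-2.15 ± 0.17, adjusted p 1.64e-10 in limma). In 4 of the 6 SBH/y rats with 1 kidney its value was below 4.66, the median over all probe sets, so the low end of this gene was measured at a dim signal. Dbp read 4.97, 5.27 and 5.59 in SBH/y against 6.96, 7.24 and 7.83 in SBN/y and was 4.08-fold lower (-2.03 ± 0.13, adjusted p 5.06e-12 in limma). Nr1d2 read 6.80, 7.01 and 7.54 in SBH/y against 8.09, 8.39 and 8.60 in SBN/y, a difference of -1.26 ± 0.12.

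Cry1 was 2.77-fold higher in SBH/y with 1 kidney (6.01, 6.83 and 7.10 against 4.90, 5.22 and 5.46 in SBN/y), a difference of 1.47 ± 0.15 log2. Nfil3 read 5.97, 6.12 and 6.48 in SBH/y against 4.78, 4.99 and 5.25 in SBN/y, a difference of 1.18 ± 0.10. Bmal1 itself differed by 0.82 ± 0.13 (6.09, 6.41 and 6.50 in SBH/y against 5.02, 5.52 and 5.90 in SBN/y). Per3 read 4.65, 5.0 and 5.04 in SBH/y against 5.56, 6.02 and 6.55 in SBN/y, and differed by -1.08 ± 0.14. For Per1 (0.07 ± 0.07), Per2 (0.08 ± 0.12) and Cry2 (-0.08 ± 0.07) the strain difference with 1 kidney did not pass the threshold, with limma adjusted p of 0.642, 0.792 and 0.539.

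Markers of cell types differed between the strains as well. Summed levels add the unlogged values of a list, so its brightest marker weighs most, Spp1 for injury and Lyz2 for myeloid cells. Of 34 marker genes, 8 were higher and 7 lower in SBH/y with 1 kidney, against 7.55% and 6.43% of probe sets, and 5 were higher and 6 lower with 2 kidneys, against 4.32% and 4.75%. With 1 kidney, 2 of 3 tubule injury markers were higher in SBH/y, Havcr1 (2.18 ± 0.24) and Spp1 (1.52 ± 0.10), and the summed level of the 3 was between 11.79 and 12.63 in SBH/y against 10.31 to 10.81 in SBN/y. All 4 myeloid markers were higher, among them Lyz2 (1.02 ± 0.08) and Cd68 (0.83 ± 0.09), with sums between 11.58 and 11.91 in SBH/y against 10.60 to 11.17 in SBN/y. Both red blood cell markers were lower, Alas2 (-0.80 ± 0.14) and Hba-a3 (-0.63 ± 0.15), with sums between 8.49 and 9.28 in SBH/y against 9.13 to 9.78 in SBN/y. Both intercalated cell markers were lower, with sums between 7.52 and 7.77 in SBH/y against 7.85 to 8.14 in SBN/y. The remaining calls were Ucp1 (-1.29 ± 0.35) of 3 adipocyte markers, Kdr (-0.32 ± 0.06) of 3 endothelial markers, Cd3g (0.31 ± 0.08) of 2 T cell markers, and Aqp2 (0.61 ± 0.11) and Aqp3 (-0.44 ± 0.11) of 3 principal cell markers.

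With 2 kidneys, Spp1 (0.51 ± 0.10) was the injury marker called, and the sums lay between 10.45 and 10.69 in SBH/y against 9.97 to 10.19 in SBN/y. Lyz2 (0.78 ± 0.08) and Cd68 (0.34 ± 0.09) were the myeloid markers called, while Csf1r (-0.02 ± 0.08) and Ptprc (0.0002 ± 0.13) were not. The myeloid sums, made up mostly of Lyz2, lay between 11.18 and 11.34 in SBH/y against 10.50 to 10.62 in SBN/y. Alas2 (-0.81 ± 0.15) and Hba-a3 (-0.75 ± 0.16) were lower again, with sums between 8.58 and 9.38 in SBH/y against 9.34 or more in SBN/y. Of the adipocyte markers Ucp1 (-1.77 ± 0.36) and Adipoq (-0.31 ± 0.08) were lower, with sums between 6.29 and 6.64 in SBH/y against 6.46 to 7.71 in SBN/y. Cubn of the proximal tubule (0.27 ± 0.08) and Aqp2 (0.40 ± 0.12) were higher, and Cd3g (-0.35 ± 0.08) and Aqp3 (-0.42 ± 0.11) were lower. The part of these cell types in the clock gene differences between the strains was not tested.

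**Figure D2:**
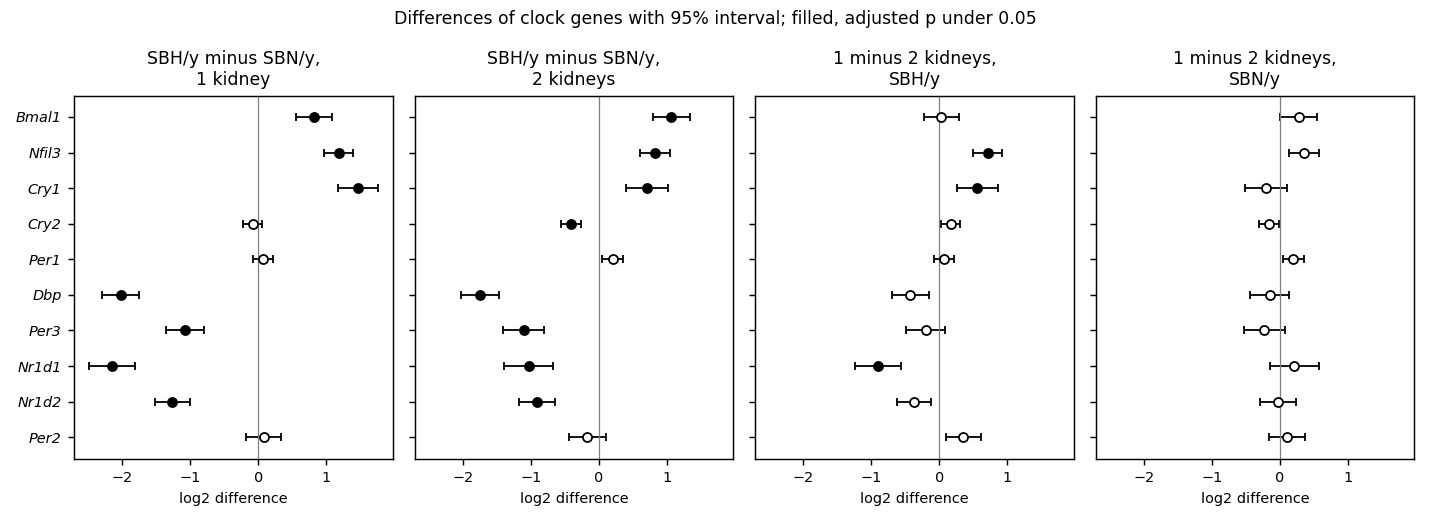
Differences of the 10 clock genes in log2 with 95% intervals from limma, in 4 comparisons. Filled points passed an adjusted p of 0.05. The strain panels hold 7 and 8 filled points on both sides of 0, the SBH/y uninephrectomy panel holds 3, and the SBN/y uninephrectomy panel holds none.

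Both probe sets of Per2 missed the threshold in both strain comparisons. Within groups over 23 rats, the second probe sets of Per2, Per3 and Cry2 followed the first with r of 0.34, 0.31 and 0.36. Pairs and slopes below use the brighter probe set of a gene unless another is named. The second probe set of Per3 averaged 3.14 over all arrays, close to the highest Xist value, and gave strain differences of -0.03 ± 0.07 with 1 kidney and -0.10 ± 0.07 with 2 kidneys, so that the Per3 results rest on its brighter probe set. Against the GAPDH measure, the correlations within groups over 23 rats were 0.53 for Nr1d1, -0.56 for Cry1, -0.54 for Cry2, -0.51 for Per2, and between 0.03 and 0.04 for Bmal1, Dbp and Per3. With that measure as a covariate, an alternative chosen after seeing the data, 7 genes passed between the strains with 1 kidney and 9 with 2 kidneys. Without the 2 arrays that stood apart, the counts were 7 and 8.

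Removal of a kidney was followed in SBH/y by higher Nfil3 and Cry1 and lower Nr1d1. These 3 of 10 genes passed the threshold, 2 higher and 1 lower, against 5.04% of all probe sets, 3.06% higher and 1.97% lower. The group ranges were apart for Nfil3 only, against 2.84% of probe sets. These are the same rats as in the strain comparisons.

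Nfil3 read 6.48, 6.02, 6.40, 6.07, 5.97 and 6.16 in the 6 SBH/y rats with 1 kidney, against 5.37, 5.54, 5.37, 5.69, 5.67 and 5.20 in the 6 with 2 kidneys. The lowest rat with 1 kidney was above the highest with 2, and the difference was 0.71 ± 0.10 log2 (1.64-fold, adjusted p 7.76e-05 in limma). Cry1 read 6.90, 6.01, 7.10, 6.47, 6.81 and 6.85 with 1 kidney, against 6.35, 5.84, 5.65, 6.45, 6.38 and 6.12 with 2. Only replicate 2 of the rats with 1 kidney fell within the range of those with 2. The Cry1 difference was 0.56 ± 0.15, with an adjusted p of 0.0205 in limma. It passed in 26 of 32 alternative fits, with adjusted p from 0.00106 to 0.0852.

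Nr1d1 read 3.69, 5.09, 4.13, 4.71, 4.50 and 4.00 in SBH/y with 1 kidney, against 5.10, 5.48, 5.41, 4.87, 5.28 and 5.40 with 2 kidneys. Here too, replicate 2 was the rat with 1 kidney that lay above the lowest rat with 2. The difference was -0.90 ± 0.17, 1.87-fold lower, with an adjusted p of 0.00098 in limma, and it passed in all 32 alternative fits.

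The remaining 7 genes did not pass in SBH/y. Dbp differed by -0.43 ± 0.13 (adjusted p 0.0613), Nr1d2 by -0.38 ± 0.12 (0.0785) and Per2 by 0.35 ± 0.12 (0.120). Cry2 differed by 0.17 ± 0.07, Per3 by -0.20 ± 0.14 and Per1 by 0.07 ± 0.07. The second probe set of Nr1d2 did pass, at -0.53 ± 0.10 with an adjusted p of 0.00133 in limma and no overlap, whereas the second probe set of Per2 gave 0.02 ± 0.08. Bmal1 averaged 6.34 ± 0.18 with 1 kidney and 6.32 ± 0.18 with 2 kidneys in SBH/y (SD, n = 6 each), and the 95% interval of its difference ran between -0.23 and 0.29.

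Replicate 2 of SBH/y with 1 kidney had the highest Nr1d1, Dbp and Nr1d2 and the lowest Bmal1, Cry1, Cry2 and Per2 of its group. Without it 6 of the 10 genes passed, and Dbp (-0.50 ± 0.13, adjusted p 0.0299), Per2 (0.45 ± 0.11, adjusted p 0.0178) and Nr1d2 (-0.46 ± 0.12, adjusted p 0.0175) were the additions in limma. Without both arrays that stood apart these 6 passed again. With the GAPDH covariate 6 also passed, Cry2 in place of Dbp.

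Other transcripts differed alongside these. The summed level of 3 proximal tubule injury markers (Havcr1, Spp1 and Lcn2) was between 11.79 and 12.63 log2 in SBH/y with 1 kidney and between 10.45 and 10.69 with 2, and 2 of the 3 passed the threshold (Havcr1 at 3.20 ± 0.24 and Spp1 at 1.45 ± 0.10). In all, 8 of 34 marker genes were higher and 6 lower, against 3.06% and 1.97% of probe sets. All 4 myeloid markers (Cd68, Csf1r, Lyz2 and Ptprc) passed as well, with a summed level between 11.58 and 11.91 with 1 kidney and between 11.18 and 11.34 with 2. So did both T cell markers, Cd3g (0.62 ± 0.08) and Cd3e (0.46 ± 0.08), with a summed level between 5.70 and 6.18 with 1 kidney and between 5.31 and 5.65 with 2. Lower were both intercalated cell markers, Slc4a1 (-0.43 ± 0.06) and Atp6v1b1 (-0.27 ± 0.07), summed between 7.52 and 7.77 with 1 kidney and between 7.87 and 8.21 with 2. Of 3 endothelial markers Emcn (-0.31 ± 0.05) and Kdr (-0.26 ± 0.06) were lower, with sums between 9.54 and 9.71 with 1 kidney and between 9.81 and 9.97 with 2. The podocyte gene Nphs1 (-0.42 ± 0.09) was lower too, as was Plin1 (-0.31 ± 0.09), 1 of 3 adipocyte markers.

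Immediate early genes, which respond within minutes to hours to stimuli, were higher for 8 of 13, against 3.06% of probe sets. The 4 of smallest p were Klf6 (0.95 ± 0.10), Myc (0.93 ± 0.11), Egr2 (0.64 ± 0.10) and Atf3 (0.60 ± 0.10), and Egr1 differed by 0.80 ± 0.16. Egr2 averaged 3.60 with 1 kidney and 2.96 with 2, and Atf3 4.02 and 3.42, so both were measured at a dim signal. The part of the markers or of the immediate early genes in the clock gene differences was not tested between groups. Within groups, the slope of Nr1d1 on Havcr1 was -0.38 ± 0.12 with a limma adjusted p of 0.674, and no probe set had a slope on Havcr1 past the threshold (0%, and 5.03% at an unadjusted p under 0.05).

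In SBN/y, none of the 10 clock genes passed the threshold after uninephrectomy, and 4 did so at an unadjusted p under 0.05 in limma. The share past the threshold among all probe sets was 0.168%, 0.0838% higher and 0.0838% lower, and no clock gene had groups apart, against 1.26% of probe sets. Nfil3 averaged 5.0 ± 0.18 (SD, n = 6) with 1 kidney and 4.65 ± 0.21 (SD, n = 5) with 2 kidneys in SBN/y, a difference of 0.35 ± 0.11 with a limma adjusted p of 0.280. The other 3 at an unadjusted p under 0.05 were Bmal1 (0.28 ± 0.13), Per1 (0.20 ± 0.07) and Cry2 (-0.15 ± 0.07). Nr1d1 differed by 0.21 ± 0.17 and Dbp by -0.15 ± 0.14, with 95% intervals between -0.15 and 0.57 and between -0.43 and 0.14. The differences of the remaining genes were 0.10 ± 0.13 for Per2, -0.23 ± 0.15 for Per3, -0.02 ± 0.13 for Nr1d2 and -0.20 ± 0.15 for Cry1.

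Among the 10 genes, the test of a difference between the strains' responses to uninephrectomy passed for Nr1d1. Its SBH/y response minus its SBN/y response was -1.12 ± 0.24, with an adjusted p of 0.0389 in limma, where 0.254% of probe sets passed and 0.0451% did so with a negative sign. The call was lost in 17 of 23 fits that left out 1 array, where adjusted p reached 0.0932, and with a trended and robust variance. The corresponding differences were 0.76 ± 0.21 for Cry1 (adjusted p 0.158), 0.36 ± 0.15 for Nfil3 (0.516) and 0.32 ± 0.10 for Cry2 (0.229). They were -0.35 ± 0.18 for Nr1d2, -0.28 ± 0.19 for Dbp, -0.25 ± 0.18 for Bmal1, 0.25 ± 0.18 for Per2, -0.13 ± 0.10 for Per1 and 0.03 ± 0.20 for Per3. Without replicate 2 of SBH/y with 1 kidney, Cry1 passed as well, at 0.90 ± 0.18 with an adjusted p of 0.0198 in limma.

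Clock genes also varied together among rats of the same group. After each value was set against its group mean, Bmal1 ran opposite to Per3 and Dbp over the 23 rats, and Dbp ran with Per3 and Nr1d2, while Nfil3 ran opposite to Nr1d1. These were the 5 of 45 pairs that passed an adjusted p of 0.05 in a permutation test of Pearson's r that shuffled rats within groups (two-sided, 100000 resamples), and 15 pairs had an unadjusted p under 0.05. The 5 calls held in all 23 fits that left out 1 array, but not with 2 rats left out. Those were each pair's 2 rats farthest from the median of its first gene's centred value. Without them the 5 kept their signs and had unadjusted permutation p between 0.00226 and 0.0446, and none of the 45 pairs passed adjustment. Leaving them out also narrows the range of the first gene. Since group means were removed, the differences between groups had no part in these relations.

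Bmal1 and Per3 gave r = -0.83 and Spearman's rho = -0.73 (permutation p 9e-05 and 0.00061, adjusted 0.00405 and 0.0106). Replicate 4 of SBN/y with 1 kidney lay at one end, with Bmal1 0.50 log2 below and Per3 0.55 above its group mean, and replicate 1 of SBN/y with 2 kidneys at the other, with Bmal1 0.41 above and Per3 0.51 below. Without these 2 rats, the farthest from the median of centred Bmal1, r was -0.68 over 21 rats (adjusted permutation p 0.128). Within the groups r was -0.50 in SBH/y with 1 kidney, -0.73 in SBH/y with 2, -0.96 in SBN/y with 1 and -0.84 in SBN/y with 2.

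Bmal1 and Dbp gave r = -0.77 and rho = -0.69 (permutation p 0.00039 and 0.00127, adjusted 0.00585 and 0.0143), and r = -0.56 without the same 2 rats (adjusted permutation p 0.170). The relation was uneven over the groups: r was -0.07 in SBH/y with 1 kidney, -0.57 in SBH/y with 2, and -0.97 in each of the SBN/y groups. In SBN/y with 1 kidney the exact permutation p was 0.00556, but no pair within a single group of 6 passed adjustment over the 45 pairs, the lowest adjusted exact p being 0.104. The smallest exact p that 6 rats allow is 0.00278.

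Dbp and Nr1d2 gave r = 0.66 and rho = 0.70 (permutation p 0.00032 and 0.00062, adjusted 0.00585 and 0.0106), and r = 0.68 without the same 2 rats, which are also the farthest in Dbp (adjusted permutation p 0.102). Their relation was positive in all 4 groups, between 0.48 and 0.87. Nfil3 and Nr1d1 gave r = -0.69 and rho = -0.72 (permutation p 0.00063 and 0.00071, adjusted 0.00709 and 0.0106), negative in all 4 groups. Without replicate 1 of SBH/y with 1 kidney and replicate 4 of SBN/y with 2, the farthest in Nfil3, r was -0.57 (adjusted permutation p 0.140). Dbp and Per3 gave r = 0.73 (adjusted permutation p 0.00738) and 0.47 without the 2 rats farthest in Dbp (adjusted permutation p 0.251), and rho = 0.54 missed the threshold with an adjusted permutation p of 0.0992. By rho, the fifth pair to pass was instead Dbp and Nfil3 (r = -0.57 and rho = -0.63, adjusted permutation p 0.0598 and 0.0358).

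**Figure D3:**
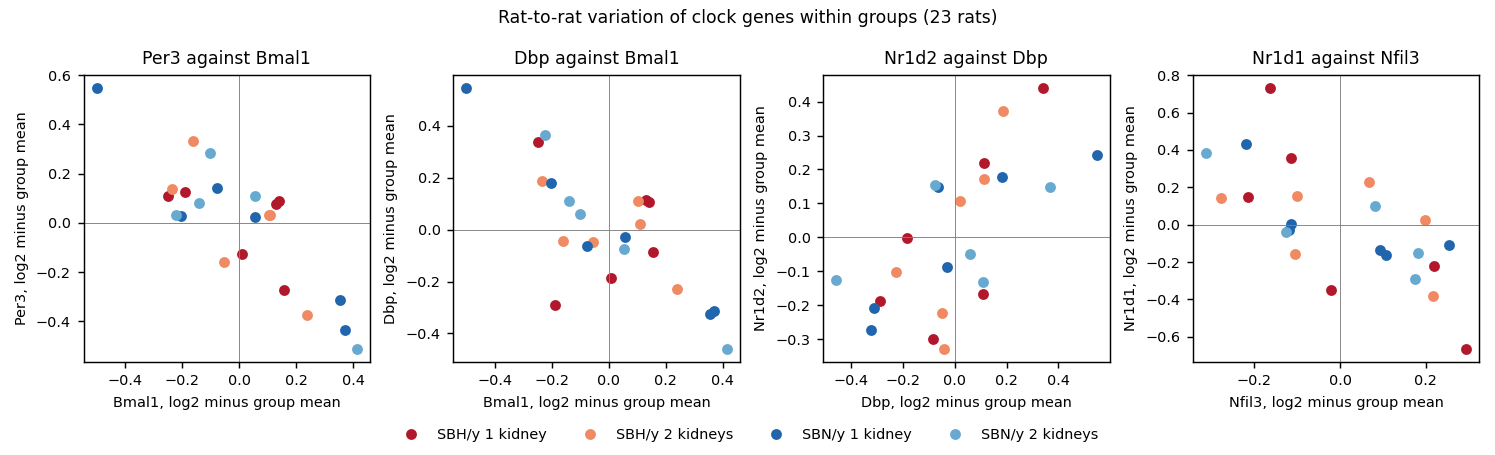
Each rat's value minus its group mean (log2) for 4 pairs of clock genes, coloured by group, 23 rats in each panel. Per3 and Dbp fall as Bmal1 rises (r = -0.83 and -0.77), Nr1d2 rises with Dbp (r = 0.66), and Nr1d1 falls as Nfil3 rises (r = -0.69).

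Per1, Per2, Cry1 and Cry2 took no part in a pair that passed. Cry1 had its strongest relations with Nr1d1 (r = -0.60), Per2 (r = 0.55) and Cry2 (r = 0.53), with adjusted permutation p of 0.0598, 0.0598 and 0.0609. Cry1, Cry2, Per2 and Nr1d1 are also the genes that ran most closely with the GAPDH measure. Nr1d2 (r = 0.38), Per1 (r = -0.32) and Nfil3 (r = -0.26) ran with it less closely. The part of the GAPDH measure was not tested in these 3 relations of Cry1, nor in the pairs that passed. The strongest r of Per1 was -0.405, with Nr1d2.

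**Figure D4:**
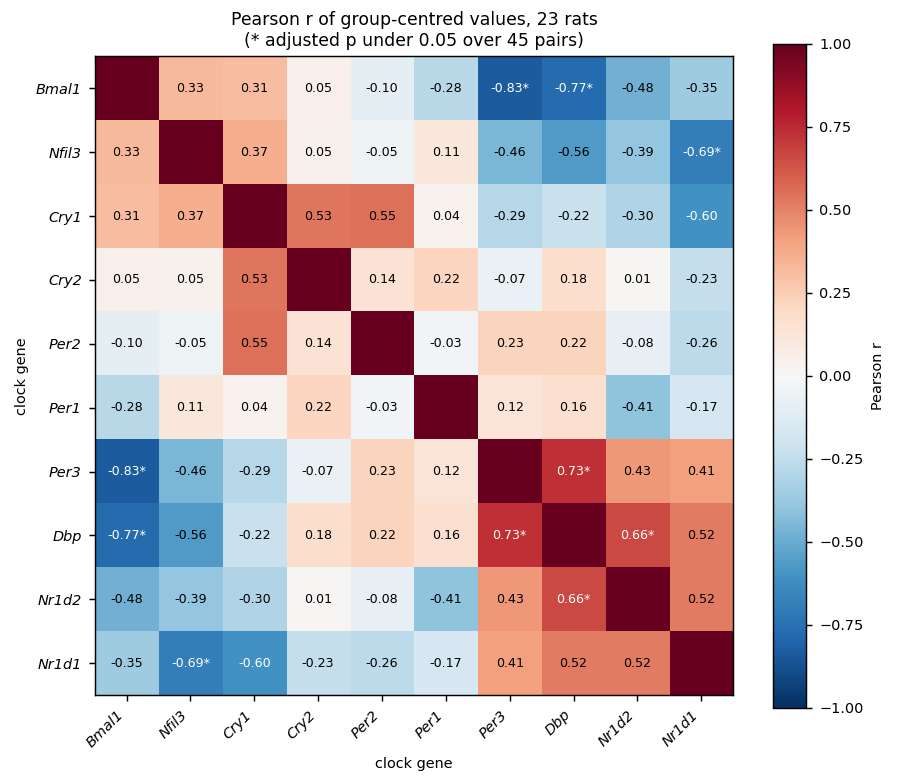
Pearson r between the 10 clock genes over 23 rats after removal of group means, with blue for negative and red for positive values. Asterisks mark the 5 of 45 pairs with an adjusted permutation p under 0.05. Bmal1 is negative with Per3, Dbp, Nr1d2 and Nr1d1, which are positive with one another.

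The same question was put to every probe set, by fitting the slope on Bmal1 within groups over 31041 others. Per3 had the smallest p of all of them, with a slope of -0.92 ± 0.14 log2 per log2 of Bmal1 (adjusted p 0.0171 in limma), and Dbp the next, with -0.81 ± 0.15 (adjusted p 0.143). Per3 was the 1 probe set past the threshold, which is 0.00322% of those tested, and 4.16% had an unadjusted p under 0.05. The Per3 call was lost in 5 of 23 fits that left out 1 array, those without replicates 1, 4 or 6 of SBN/y with 1 kidney, replicate 1 of SBN/y with 2 or replicate 1 of SBH/y with 2, with slopes between -0.92 and -0.85 and adjusted p of up to 0.646. Nr1d2 (-0.47 ± 0.18) and Nr1d1 (-0.48 ± 0.26) had negative slopes that did not pass. With Dbp as the measure in place of Bmal1, no probe set passed (0%, with 3.64% at an unadjusted p under 0.05), Bmal1 ranked 1 by p with a slope of -0.72 ± 0.13 and Per3 ranked 3 with 0.76 ± 0.15.

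Fitted by strain, the slopes on Bmal1 in SBH/y were -0.28 ± 0.26 for Dbp and -0.72 ± 0.26 for Per3, and neither passed in limma (adjusted p 0.992 and 0.880). In SBN/y they were -1.02 ± 0.16 for Dbp and -1.0 ± 0.16 for Per3 (limma adjusted p 0.0204 and 0.0250), among 0.0161% of probe sets. Bmal1 spread less in SBH/y (SD 0.18 in each group) than in SBN/y (SD 0.34 with 1 kidney and 0.25 with 2). The 2 rats farthest in centred Bmal1 were both SBN/y, and the fit by strain was not repeated without them. The SBH/y slope minus the SBN/y slope did not pass for any clock gene. It was 0.74 ± 0.30 for Dbp (adjusted p 0.883), 1.37 ± 0.44 for Cry1 (0.881) and 1.36 ± 0.38 for Per2 (0.827). For Cry1 the slope was 1.35 ± 0.37 in SBH/y and -0.03 ± 0.23 in SBN/y. For Per2 it was 0.88 ± 0.32 in SBH/y and -0.48 ± 0.20 in SBN/y.

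With each rat's Bmal1 value in the model, the strain difference of Dbp remained past the threshold, at -1.37 ± 0.15 with 1 kidney and -0.88 ± 0.19 with 2 (limma adjusted p 6.5e-07 and 0.00601). That of Per3 did not, at -0.33 ± 0.14 and -0.12 ± 0.17 (limma adjusted p 0.221 and 0.912). Nfil3, Nr1d1, Nr1d2 and Cry1 passed in this model with 1 kidney but not with 2, and Cry2 passed with neither. Bmal1 itself did not overlap between the strains at either kidney number. These adjusted differences thus extend the slope within groups across Bmal1 values that the strains do not share. The part of Bmal1 in the strain differences was not tested.

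The genes whose group-centred values were most like those of Bmal1, among 9423 genes above the median probe set and over 23 rats, were Ddit4l (r = 0.77), Lgalsl (0.74), Rdh16 (0.73), Iqgap2 (0.72) and Pklr (0.70). The most opposite were Per3 (-0.83), Rpl18 (-0.77), Dbp (-0.77), Ppt1 (-0.72) and Dapk3 (-0.72). For Dbp the most alike were Mgmt (0.74), Hsd17b2 (0.73), Per3 (0.73), Ndufa9 (0.71) and Wwox (0.71), and the most opposite were Bmal1 (-0.77), Arhgap23 (-0.72), Ndrg1 (-0.70), Cndp1 (-0.69) and Cyp2c11 (-0.68). Values of different genes share their array, and these likenesses carry no test.

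Of 17 further genes of the clock machinery, 13 were measured, and 4 of them passed the threshold between the strains in at least 1 comparison. With 2 kidneys 1 was higher in SBH/y (Npas2) and 3 were lower (Bhlhe41, Tef and Rora), against 4.32% and 4.75% of all probe sets, with a median difference of 0.0022 against 0.0044 over all probe sets. With 1 kidney 1 was higher (Npas2) and 2 were lower (Bhlhe41 and Tef), against 7.55% and 6.43%, with a median of -0.027 against -0.0053.

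Npas2, the partner of BMAL1 that can stand in for CLOCK, averaged 5.71 ± 0.23 in SBH/y against 5.16 ± 0.30 in SBN/y with 1 kidney (SD, n = 6 each), a difference of 0.55 ± 0.13. With 2 kidneys it averaged 5.97 ± 0.22 in SBH/y (SD, n = 6) against 5.14 ± 0.25 in SBN/y (SD, n = 5), without overlap, a difference of 0.83 ± 0.13. Bhlhe41, the E-box repressor DEC2, was lower in SBH/y, with differences of -1.08 ± 0.14 with 1 kidney and -0.98 ± 0.15 with 2, as was Tef, a D-box activator related to Dbp, with -0.55 ± 0.08 and -0.50 ± 0.08, without overlap in any of these 4 comparisons. Rora, an activator at the ROR element, differed by -0.38 ± 0.11 with 2 kidneys. Clock itself differed by 0.08 ± 0.08 with 1 kidney and 0.19 ± 0.08 with 2, neither past the threshold (limma adjusted p 0.619 and 0.187).

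After uninephrectomy, Bhlhe40 (DEC1, an E-box repressor) was the 1 of these 13 past the threshold in SBH/y, higher by 0.31 ± 0.08 with a limma adjusted p of 0.0234, against 5.04% of probe sets. None passed in SBN/y or in the interaction in limma, with 3 and 0 at an unadjusted p under 0.05. Within groups, none of the 13 had a slope on Bmal1 past the threshold. Npas2 and Clock had the smallest p among them, with slopes of 0.58 ± 0.18 and 0.32 ± 0.11 (limma adjusted p 0.949 and 1.0).

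**Figure D5:**
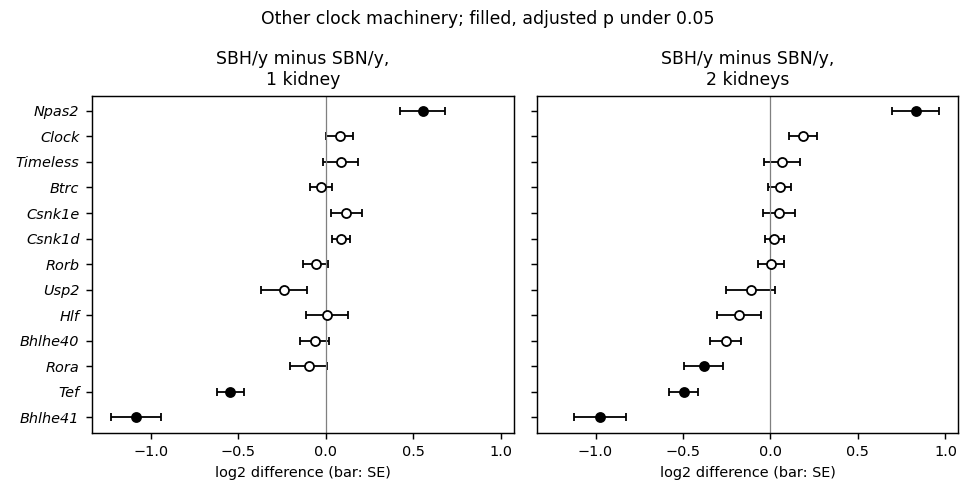
Differences between SBH/y and SBN/y in log2, with SE, for 13 further genes of the clock machinery, with 1 kidney and with 2. Filled points passed an adjusted p of 0.05: Npas2 lies right of 0 and Tef and Bhlhe41 left of it in both panels, and Rora is filled with 2 kidneys only.

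Genes known in rodents as clock-controlled outputs were divided in direction. Of 18, 3 were higher and 2 lower in SBH/y with 1 kidney, against 7.55% and 6.43% of all probe sets, and 5 were higher and 2 lower with 2 kidneys, against 4.32% and 4.75%. Sgk1, the kinase that raises sodium channel activity, was 0.95 ± 0.07 and 0.99 ± 0.07 higher with 1 and with 2 kidneys, and Tsc22d3 (GILZ) was 0.79 ± 0.09 and 0.56 ± 0.10 higher, all without overlap. Alas1, the rate-limiting enzyme of heme synthesis and a target of the clock in liver, was lower, with differences of -0.84 ± 0.10 and -0.77 ± 0.10. Por, the electron donor of cytochrome P450 enzymes, gave -0.24 ± 0.06 and -0.36 ± 0.07. The water channel gene Aqp2 was higher, by 0.61 ± 0.11 and 0.40 ± 0.12. After uninephrectomy in SBH/y, Tsc22d3 rose by 0.44 ± 0.09 and Slc9a3, the apical sodium-proton exchanger, fell by 0.49 on the log2 scale (SE 0.08), which makes 2 of 18 against 5.04% of probe sets. In SBN/y 1 of the 18 passed, the taurine transporter Slc6a6 (-0.42 ± 0.09), against 0.168%.

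Sgk1 and Tsc22d3 are also on the list of glucocorticoid-responsive genes, of which 13 of 14 were measured. In SBH/y 5 of them were higher and none lower with 1 kidney, against 7.55% and 6.43% of all probe sets, and 4 were higher and none lower with 2 kidneys, against 4.32% and 4.75%. Beside the shared pair, Fkbp5 (0.49 ± 0.13), Cdkn1a (0.24 ± 0.07) and Dusp1 (0.36 ± 0.12) were called with 1 kidney, and Errfi1 (0.63 ± 0.18) and Dusp1 (0.40 ± 0.12) with 2. After uninephrectomy Cdkn1a rose in both strains, by 0.43 ± 0.07 in SBH/y and 0.36 ± 0.08 in SBN/y, and Klf15 fell in SBH/y by 0.39 on the log2 scale (SE 0.07). Among immediate early genes, 6 of 13 were higher in SBH/y with 1 kidney and 3 with 2 kidneys, none was lower, and the shares of probe sets are those just given. Myc differed by 1.25 ± 0.11 and 0.68 ± 0.11 and Atf3 by 0.84 ± 0.10 and 0.43 ± 0.11, while Klf6 was called with 1 kidney (0.86 ± 0.10) and not with 2 (0.25 ± 0.10), and Jun was called with both (0.50 ± 0.11 and 0.54 ± 0.11). Atf3 averaged 3.18 and 2.98 in SBN/y with 1 and with 2 kidneys, which is a dim signal. In SBN/y 1 of the 13 passed after uninephrectomy, Jun (0.53 ± 0.11), against 0.0838% of probe sets higher. No gene of the output, glucocorticoid or immediate early lists passed in the interaction in limma, where 2, 2 and 5 had an unadjusted p under 0.05 and Klf6 came nearest (0.61 ± 0.14, adjusted p 0.053). None passed in the slope on Bmal1 either, with 2, 1 and 0 at an unadjusted p under 0.05. The part of these lists in the strain differences of the clock genes was not tested.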

How the data were processed

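Each of 23 male rat kidneys had 1 Affymetrix array. The deposited values are log2 intensities per probe set, for which the submitters' processing notes name GCOS and RMA without versions. RMA corrects background, quantile-normalizes the arrays and summarises probes, so a change in total mRNA could not be seen. Of 31099 probe sets, 57 controls were left out and 31042 tested, and the array's annotation named 14217 genes by 1 symbol. No scan date was known, so batches could not be examined. The number of arrays limits the precision, and since the labels do not state that samples are separate animals beyond naming them, p-values reflect only sample-to-sample spread, which may be technical.

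A limma fit (limma 3.58.1, R 4.3.3) gave each of 4 groups a mean, and 5 contrasts were tested (two-sided, Benjamini-Hochberg, threshold 0.05). Errors beside log2 differences and slopes are standard errors unless SD is given. Slopes on Bmal1 used its group-centred value as a further term, and pairs of genes were correlated after group means were removed, with permutations of rats within groups (Python 3.11.15, SciPy 1.17.1, NumPy 2.4.6). Both procedures were tested on simulated data. All 10 genes are named in every comparison of groups. Genes of 4 further lists are named from those with the 4 lowest p in at least 1 comparison, though not all of these are named. Also named are the 5 genes most like and most unlike Bmal1 and Dbp. Marker genes are given with their lists where called, and Clock was named for its role after its values were seen. The genes and lists were chosen with earlier results of these data known. Alternatives were leaving out each array, Bmal1 as a covariate, the replicate number as a block, quantile normalization repeated, dim probe sets left out, robust trended variance, fits to the compared groups alone and the next probe set of a gene. A GAPDH covariate, a fit without the arrays that stood apart, slopes on Dbp and Havcr1, slopes by strain and correlations without the 2 rats farthest in a gene's centred value were chosen after seeing the data. Over all probe sets, same-numbered rats of different groups did not deviate together throughout (r between -0.171 and 0.259).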

Additional observations from a re-analysis of the deposited data

Results flagged for a closer look

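Among 40 sets of 1 clock gene in 1 group, 2 held a sample far from the others by Dixon's ratio of gap to range, where chance gives about 1 in 20. Cry2 in replicate 3 of SBH/y with 2 kidneys read 5.854, the lowest of its group, with a gap of 0.749 of the group's range. This is 1 of the arrays that stood apart on the second principal component. Nr1d1 in replicate 4 of SBN/y with 1 kidney read 6.935, the highest of its group, with a gap of 0.719 of the range. The same rat had the lowest Bmal1 and the highest Dbp, Per3 and Nr1d2 of its group. The uninephrectomy response of Nr1d1 differed between SBH/y and SBN/y by -1.116 log2 in a test of the difference itself (limma adjusted p 0.0389). That call was lost in 17 of 23 fits that left out 1 array, and with a trended and robust variance.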

How the results depend on the processing

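The number of clock genes past the threshold between the strains was 7 with 1 kidney in every fit that left out 1 array and 8 or 9 with 2 kidneys, and it stayed at 0 for uninephrectomy in SBN/y. For uninephrectomy in SBH/y it was 5 with repeated quantile normalization, 6 with the GAPDH covariate and 6 without the arrays that stood apart, and between 2 and 6 with 1 array left out. For the interaction it was 0 with a trended and robust variance, 2 without the arrays that stood apart, and between 0 and 2 with 1 array left out. Genes with a slope on Bmal1 numbered 0 with the next probe set, 0 with the replicate block, 2 with a trended and robust variance and between 0 and 2 with 1 array left out. Pairs of correlated genes numbered 8 with repeated quantile normalization, 9 with the replicate block, 0 without the 2 rats farthest in a pair's first gene, and between 5 and 9 with 1 array left out.

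Over all probe sets, rats of the same replicate number did not deviate together throughout, which does not test the clock genes alone. In replicate 1, centred Bmal1 was 0.41 and 0.35 in SBN/y with 2 and 1 kidneys and 0.24 and -0.19 in SBH/y with 2 and 1. Centred Dbp was -0.46, -0.32, -0.23 and -0.29 in the same order, and Per3 -0.51, -0.31, -0.37 and 0.13. As a block, the replicate number gave 4 genes for uninephrectomy in SBH/y, 0 in SBN/y and 1 for the interaction. It gave 7 and 8 for the strains with 1 and with 2 kidneys, with the Per3 slope on Bmal1 at -0.96 (limma adjusted p 0.322). Differences that changed sign had not passed the threshold in the first place, except Cry2 between the strains with 2 kidneys, 0.0379 on its next probe set. On that probe set Cry2 was -0.0816 for uninephrectomy in SBH/y, 0.00973 for strain with 1 kidney, -0.0282 for the interaction and -0.0961 for its slope on Bmal1, and the next probe set of Per2 was -0.0169 for uninephrectomy in SBN/y. The replicate block turned the Bmal1 slopes of Per2 (0.00876) and Cry2 (-0.153), and leaving out the arrays that stood apart turned that of Cry2 (-0.061). With Bmal1 as a covariate, uninephrectomy in SBN/y turned for Dbp (0.0763), Per3 (0.0278) and Nr1d2 (0.106), and the interaction for Per3 (-0.204). With the GAPDH covariate it turned for Nr1d1 (-0.0434) and Cry1 (0.0282) in SBN/y, and the 2-kidney strain difference for Per2 (0.0294). With 1 array left out, values that had missed the threshold crossed 0 for Bmal1 in SBH/y (-0.0202 to 0.0763), for Per2 (-0.00039 to 0.18) and Nr1d2 (-0.0722 to 0.031) in SBN/y, for the Per3 interaction (-0.06 to 0.15) and for the slopes of Cry2 (-0.023 to 0.157) and Per2 (-0.25 to 0.11). The cause of these changes was not tested.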
